A study of Mus musculus with 14 samples.

Results

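The actin and contractile cytoskeleton genes described here are 39 genes chosen by symbol, by their known roles: 5 actins, 5 tropomyosins and caldesmon, 5 transgelins and calponins, 8 genes of myosin II, 4 crosslinkers, 8 adhesion and LIM proteins and 4 proteins of monomer binding and turnover. They were taken from a table of 21878 mouse genes, and all 39 passed the filter on low counts that left 14100 genes. The study sequenced RNA of C57BL/6 mouse hepatocytes, the main metabolic cells of liver, in a study of how hepatocyte functions can be kept in culture by limiting tension-driven activity of the coactivator YAP. LBDXL 3W cells were hepatocytes held 3 weeks in the culture that the labels call LBDXL, and BM 3W Yap-/- cells were Yap-/- hepatocytes held 3 weeks in the culture called BM. FH Yap-/- cells were Yap-/- hepatocytes taken fresh from the liver and FH cells were hepatocytes taken fresh without that genotype. BM 1D, BM 3D and BM 3W cells were hepatocytes kept in BM for 1 day, 3 days and 3 weeks. Each of the 7 groups held 2 libraries, 14 in all, with 15501005 to 21220365 counts each. The sources used here do not give what BM and LBDXL contain, nor how or in which cells Yap was deleted. The labels do not state whether both libraries of a group were made from different mice or dishes; the p-values therefore reflect only how much these libraries vary, which may be technical.

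Actin filaments are built from actin monomers, which thymosins hold in reserve, profilin delivers to growing ends and cofilin releases by severing old filaments. Tropomyosins, calponins and transgelins coat filaments, alpha-actinins and filamins tie them together, and myosin II pulls on them once its light chains are phosphorylated by myosin light chain kinase. Talin, vinculin, zyxin and VASP join filament bundles to the matrix at focal adhesions. Hepatocytes in the liver keep a thin cortical and pericanalicular actin network, whereas alpha smooth muscle actin, transgelin and calponin mark smooth muscle and the myofibroblasts that arise from stellate cells. Transcription reads the state of actin by SRF with its MRTF partners, which bind the CArG box, and YAP with TEAD factors, which bind the MCAT element.

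Levels are given as CPM, counts scaled by library size and TMM factor, where a gene is compared between libraries, and as FPKM, the authors' values per transcript length, where genes are compared with each other. Log2 fold changes are given ± their standard error, from edgeR's quasi-likelihood test, and "rose" or "fell" is used only where the p adjusted by Benjamini-Hochberg across the 14100 genes was under 0.05. The share of all genes called is printed beside the first count of each comparison. TMM factors ran from 0.648 to 1.69, and scaling by total counts alone moved the median log2 fold change of all genes in BM 3W against FH to 1.46, from 0.17 with TMM. The split under total counts is therefore given beside the main one where they differed by over 10 percentage points. Yap1 had 6.66 and 7.75 CPM in BM 3W Yap-/-, 23.1 and 26.5 in FH Yap-/- and 80.2 to 131 in the other 10 libraries, so all 4 libraries labelled Yap-/- were the lowest. The summed CPM of 7 hepatocyte markers, albumin among them, was 207550 and 160847 in LBDXL 3W, 114176 and 98324 in BM 3W Yap-/-, 251784 and 241595 in FH Yap-/-, 212777 and 209655 in FH, 58155 and 66250 in BM 1D, 34649 and 81529 in BM 3D, and 32591 and 3362 in BM 3W. RNA from fewer cells of a type and less RNA per cell cannot be told apart in these bulk libraries.

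Some of the counts are uncertain because copies or neighbours share sequence with the gene. Of the distinct stretches of 75 bases in the coding transcripts of Actg1 in GENCODE M21, 42.7% also occur in transcripts of other genes, mostly pseudogenes. The same share was 33.3% for Tpm3, 19.3% for Tmsb10 and 9.45% for Tpm4. Myl12a and Myl12b, adjacent genes on chromosome 17 that encode near-identical regulatory light chains, share 17.1% and 18.5% of theirs with other genes, mainly each other. The sources used here do not give whether reads were counted by strand. Exons of genes on the opposite strand cover 67.9% of the exonic bases of Tagln (Pcsk7 and Gm48529), 25.5% of those of Vcl (Ap3m1), 17.7% of those of Cnn3 and 16.5% of those of Cfl1.

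Promoter sequences from RefSeq (GRCm38.p6), 250 bases before to 50 after a start, were held for 36 of the 39 genes; Actb, Actg2 and Tagln had none. A CArG box in its strict form, which reads as itself on both strands, lay in the window of 7 of these 36 genes (19.4%), against 488 of all 27025 genes with a window (1.81%). The core of the MCAT element, GGAATG or CATTCC so that both strands are covered, lay in 13 of the 36 (36.1%), against 16.6% of all genes; it can overlap a CArG box by 2 bases. A match is a description of letters, not of a bound site. The 7 windows with a CArG box are printed because they let the promoters of genes that behaved differently be compared, from Myl9, which rose in BM 3D and BM 3W, to Lima1, which passed in no comparison with TMM scaling. Each runs 5′ to 3′ on the strand of its gene, upstream of the start, with the CArG box in capitals.
Myl9, chr2:156775278-156775337, plus strand: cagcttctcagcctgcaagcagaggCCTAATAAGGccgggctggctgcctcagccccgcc
Acta1, chr8:123894814-123894873, minus strand: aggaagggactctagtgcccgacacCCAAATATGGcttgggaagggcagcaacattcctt
Cnn2, chr10:79988519-79988578, plus strand: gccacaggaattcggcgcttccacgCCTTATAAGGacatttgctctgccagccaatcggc
Myl6, chr10:128493025-128493084, minus strand: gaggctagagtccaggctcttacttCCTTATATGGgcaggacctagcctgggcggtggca
Actg1, chr11:120348551-120348610, minus strand: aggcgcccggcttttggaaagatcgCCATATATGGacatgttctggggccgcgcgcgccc
Vcl, chr14:20929148-20929205, plus strand: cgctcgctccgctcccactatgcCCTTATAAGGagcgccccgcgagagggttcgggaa
Lima1, chr15:99820162-99820221, minus strand: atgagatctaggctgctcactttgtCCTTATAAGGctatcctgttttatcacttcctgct
The box began 161 bases before the start in Myl9, 90 in Actg1, 73 in Acta1, 56 in Cnn2, 50 in Myl6, 47 in Lima1 and 227 in Vcl. Cnn2, Vcl and Lima1 carry the same 10 letters, while in BM 3W against FH their log2 fold changes were 7.81, 2.15 and -0.28.

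The 39 genes together took a small and steady share of fresh hepatocyte RNA and a much larger share of cultured cell RNA. In LBDXL 3W they held 0.708% and 0.385% of the counts. In BM 3W Yap-/- the share was 1.13% and 0.940%, against 0.235% and 0.224% in FH Yap-/-. Over BM culture the share was 0.194% and 0.195% in FH, 1.62% and 1.44% in BM 1D, 1.501% and 1.514% in BM 3D and 2.40% and 2.85% in BM 3W. Every BM library was thus above every fresh one, and LBDXL 3W lay between them. These shares are before TMM scaling. With it, the 39 genes summed to 2982.5 and 3007.1 CPM in FH, 7641.2 and 4394.0 in LBDXL 3W and 16110.5 and 16879.8 in BM 3W. The rise from FH was thus smaller in scaled sums than in raw shares. Per transcript length, Actb, which encodes the main nonmuscle actin, led the list in each group, at 366 ± 172 FPKM in LBDXL 3W, 757 ± 20.2 in BM 3W Yap-/-, 144 ± 6.20 in FH Yap-/-, 116 ± 1.84 in FH, 1485 ± 202 in BM 1D, 1111 ± 165 in BM 3D and 1471 ± 112 in BM 3W (SD, n = 2 each). Profilin (Pfn1) and cofilin (Cfl1) followed it in FH at 97.7 ± 0.262 and 87.5 ± 4.66 FPKM. In BM 3W, Tmsb4x, which encodes the monomer-holding thymosin beta 4, came second at 1154 ± 267 FPKM.

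**Figure D1:**
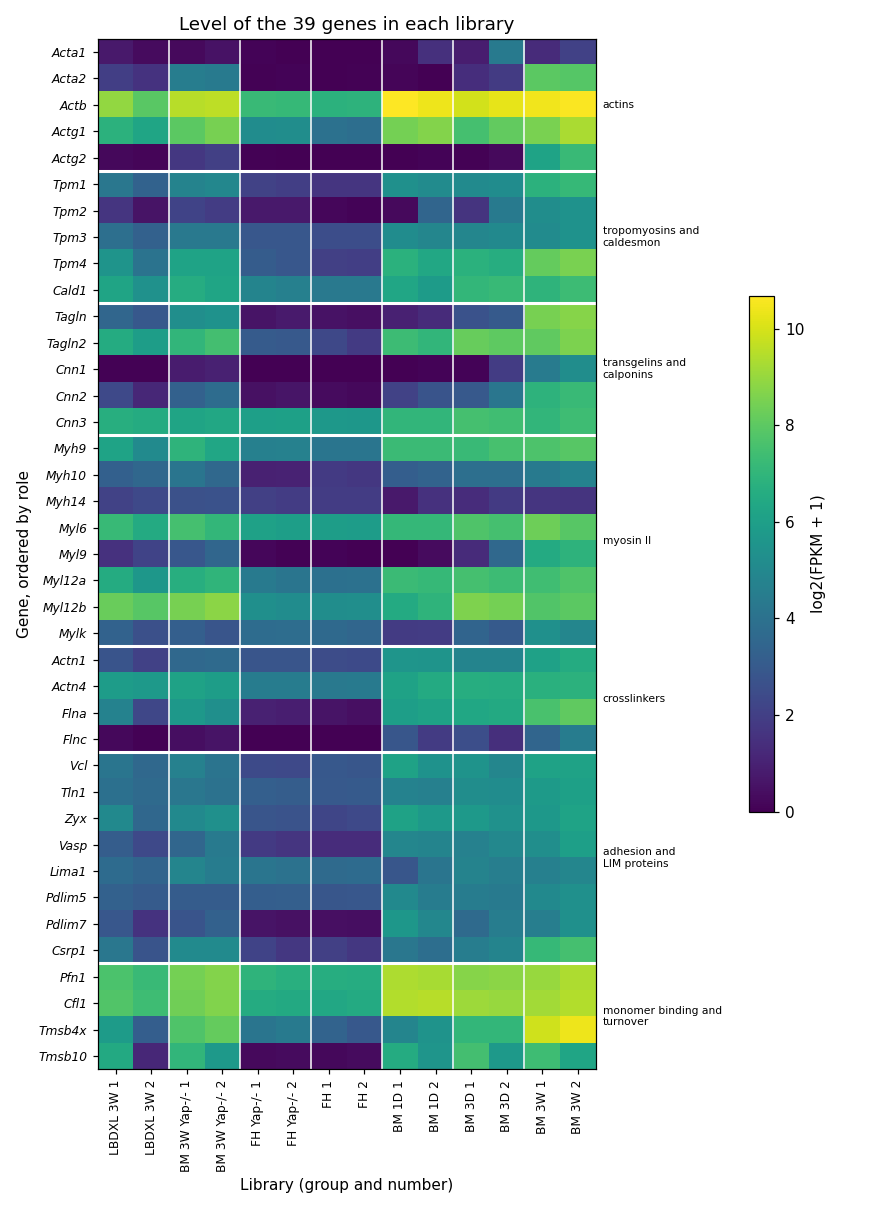
Level of each of the 39 genes (rows, ordered by role) in each of the 14 libraries (columns) as log2(FPKM + 1). Actb is the brightest row in every group, and Acta2, Tagln, Cnn1 and Myl9 are bright in BM 3W and dark in FH.

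After 1 day in BM, most genes of the filament machinery were already higher, while most genes of the smooth muscle set had not passed the test. Of the 39 genes, 27 rose and 2 fell in BM 1D against FH, where 23.6% of all genes rose and 20.2% fell. Their median log2 fold change was 2.33, or 2.17 with genes at 0 counts set to a bound of 3 counts per library, beside 0.17 over all genes. Scaled by total counts, 32 rose and 1 fell, while 83.9% instead of 53.9% of all called genes were higher. All 4 crosslinkers rose, as did 7 of 8 adhesion and LIM proteins, 4 of 5 tropomyosins and caldesmon and 3 of 4 turnover proteins. Only 1 of the 7 genes of the smooth muscle set (Acta2, Actg2, Tagln, Cnn1, Myl9, Mylk and Tpm2) rose and 1 fell.

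Actb (chromosome 5, 142903115 to 142907976) stood at 2921 and 2386 CPM in BM 1D, against 364 and 368 in FH, and rose by 2.86 ± 0.36 on the log2 scale (adjusted p = 0.000148). Actg1 (chromosome 11, 120345687 to 120348495), the second nonmuscle actin, stood at 945 and 1020 CPM in BM 1D and 80.1 and 74.2 in FH (3.67 ± 0.35, adjusted p = 3.2e-05). For both actins the 2 groups were far apart next to the spread within them. Flna (chromosome X, 74223461 to 74249854), the filamin that crosslinks cortical actin, had 648 and 751 CPM in BM 1D, against 8.91 and 5.86 in FH (6.57 ± 0.76, adjusted p = 9.14e-05). Flnc (chromosome 6, 29433153 to 29461889), the filamin of muscle, had 62.0 and 27.0 CPM in BM 1D and no count in either FH library, so it was at least 187-fold higher. Its adjusted p was 6.37e-05.

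Among adhesion genes, Pdlim7, a PDZ and LIM protein of stress fibres, moved most at day 1, with 197 and 126 CPM in BM 1D, against 3.10 and 2.30 in FH (5.90 ± 0.60, adjusted p = 4.74e-05). Zyx (zyxin), Vasp, Vcl (vinculin), Pdlim5, Csrp1 and Tln1 (talin) rose by log2 values between 1.10 and 3.19. Tmsb10, a second thymosin, had 318 and 204 CPM in BM 1D and 1.19 and 1.03 in FH (7.87 ± 1.62, adjusted p = 0.00279). Tagln2, the transgelin of nonmuscle cells, rose by 4.68 ± 0.32 (adjusted p = 7.55e-06), and its libraries held 186 and 160 CPM in BM 1D and 8.27 and 5.22 in FH. Each of these genes was higher in both BM 1D libraries than in both FH libraries.

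The fall at day 1 was clearest for Mylk, which encodes myosin light chain kinase (chromosome 16, 34745199 to 35002436). It had 29.1 and 27.6 CPM in BM 1D, against 212 and 193 in FH (-2.84 ± 0.35, adjusted p = 0.00014). Myh14, the heavy chain of nonmuscle myosin IIC, had 4.42 and 14.9 CPM in BM 1D and 31.2 and 32.7 in FH (-1.72 ± 0.49, adjusted p = 0.015); the call was lost without BM 1D 1 (adjusted p = 0.0641), without FH 1 (0.0502) or FH 2 (0.0592), and under total counts (0.153). Tpm2, the call of the smooth muscle set that rose, rested on 1 library: it had 1.35 and 53.9 CPM in BM 1D and 1.67 and 0.791 in FH, groups that overlap, and without BM 1D 2 its log2 fold change was 0.14 (adjusted p = 0.983). Of the 29 calls, 23 held under all 25 alternatives, and the others were Tpm2, Cnn3, Myl6, Myh10, Myh14 and Csrp1. Without FH 2, adjusted p was 0.0534 for Myh10 and 0.0688 for Csrp1.

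By 3 days in BM, 35 of the 39 genes had risen over FH and 1 had fallen, against 22.5% and 17.9% of all genes. The median log2 fold change was 2.59 (2.55 with bounds), beside 0.17 over all genes, and under total counts 37 rose and 0 fell, with 87.9% rather than 55.7% of all called genes higher. Genes of the smooth muscle set now joined, with 5 of 7 higher and Mylk lower. Of the 5, Tpm2 (10.5 and 104 CPM), Cnn1 (0.203 and 8.28) and Myl9 (2.19 and 19.8) were far higher in BM 3D 2 than in BM 3D 1. Of the 36 calls against FH, 29 held under all alternatives, and those of Tpm2 and Cnn1 did not. Acta2, the smooth muscle actin (chromosome 19, 34240336 to 34255585), had 6.44 and 10.5 CPM in BM 3D, against 0 and 0.237 in FH. Its adjusted p was 0.000268, and with 3 counts in the FH libraries together the ratio was 69.7 (95% counting interval 23.7 to 339). Tagln (chromosome 9, 45929628 to 45936058), which encodes the smooth muscle filament protein SM22, had 8.02 and 11.8 CPM in BM 3D and 1.27 and 1.03 in FH (3.10 ± 0.31, adjusted p = 7.06e-05). Both genes remained far below Actb, which had 1474 and 2228 CPM in BM 3D. Mylk stood at 87.7 and 71.8 CPM in BM 3D (-1.35 ± 0.34 against FH, adjusted p = 0.00868), but its call was lost without BM 3D 2 (adjusted p = 0.0574), without FH 1 (0.0501) and under total counts (0.335).

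Set directly against BM 1D, BM 3D had 5 of the 39 genes higher and 0 lower, beside 3.67% and 1.60% of all genes. The 5 were Acta2, Tagln, Myl9, Mylk and Myl12b. Acta2 stood at 6.44 and 10.5 CPM in BM 3D and 0.496 and 0.0521 in BM 1D (4.86 ± 0.65, adjusted p = 0.00536). Myl9, the regulatory light chain of smooth muscle myosin (chromosome 2, 156775408 to 156781657), stood at 2.19 and 19.8 CPM in BM 3D and 0.0451 and 0.469 in BM 1D (5.44 ± 1.02, adjusted p = 0.0152). The BM 3D libraries thus lay above those of BM 1D, though the 2 BM 3D libraries differed widely in Myl9. In a fit on these 2 groups alone, 0 of 12512 genes and 0 members were called, with 1819 genes and 9 members at an unadjusted p under 0.05. DESeq2, run on all 14 libraries, called 10 members, 8 higher and 2 lower. Without BM 1D 1, 2 members were called, and the adjusted p of Myl9 was 0.108.

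At 3 weeks in BM, the smooth muscle genes had become abundant. Of the 39 genes, 35 rose and 1 fell in BM 3W against FH, beside 33.0% and 26.1% of all genes, and the median log2 fold change was 2.91 beside 0.17. Total counts gave 38 higher and 0 lower, with 87.2% rather than 55.9% of all called genes higher. All 5 actins, all 5 tropomyosins and caldesmon, all 4 crosslinkers and all 4 turnover proteins rose. Against BM 3D, 12 rose and 2 fell (13.5% and 10.9% of all genes), with a median of 0.38 beside -0.10 over all genes. Total counts gave 16 higher and 0 lower there, with 78.3% rather than 55.3% of all called genes higher. In that later step 6 of the 7 smooth muscle genes rose, and Tpm2 alone did not pass.

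Acta2 had 0 and 0.237 CPM in FH, 0.496 and 0.0521 in BM 1D, 6.44 and 10.5 in BM 3D and 816 and 626 in BM 3W. The step from 3 days to 3 weeks was a log2 fold change of 6.41 ± 0.59 (adjusted p = 6.69e-05), and the ratio of BM 3W to FH was 6008 (95% counting interval 2056 to 29134). Tagln went through 1.27 and 1.03 CPM in FH, 1.67 and 2.50 in BM 1D, 8.02 and 11.8 in BM 3D and 436 and 458 in BM 3W. Its change against BM 3D was 5.49 ± 0.30 (adjusted p = 5.05e-06). Both genes thus held their 2 largest values in the 3 week libraries, with no overlap with any earlier group.

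Actg2, the actin of enteric smooth muscle (chromosome 6, 83512909 to 83536251), stayed at or under 0.296 CPM in the FH, BM 1D and BM 3D libraries and had 80.1 and 145 CPM in BM 3W (9.42 ± 0.71 against BM 3D, adjusted p = 4.25e-05). It had no count in FH, so BM 3W was at least 474-fold higher. Cnn1, smooth muscle calponin (chromosome 9, 22099221 to 22109221), had 47.4 and 74.7 CPM in BM 3W and 0.203 and 8.28 in BM 3D (3.86 ± 1.11, adjusted p = 0.0349). In the same step 9 instead of 14 members were called without BM 3W 2. The call of Cnn1 was lost without BM 3W 1 (adjusted p = 0.0687), without BM 3W 2 (0.131) or without either BM 3W Yap-/- library (0.0572 and 0.0568); against FH, where Cnn1 had no count, BM 3W was at least 256-fold higher. Myl9 had 131 and 139 CPM in BM 3W and 2.19 and 19.8 in BM 3D (3.62 ± 0.79, adjusted p = 0.00804). Tpm2, a striated and smooth muscle tropomyosin (chromosome 4, 43513726 to 43523583), had 164 and 169 CPM in BM 3W and 10.5 and 104 in BM 3D, a difference that did not pass (adjusted p = 0.385).

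**Figure D2:**
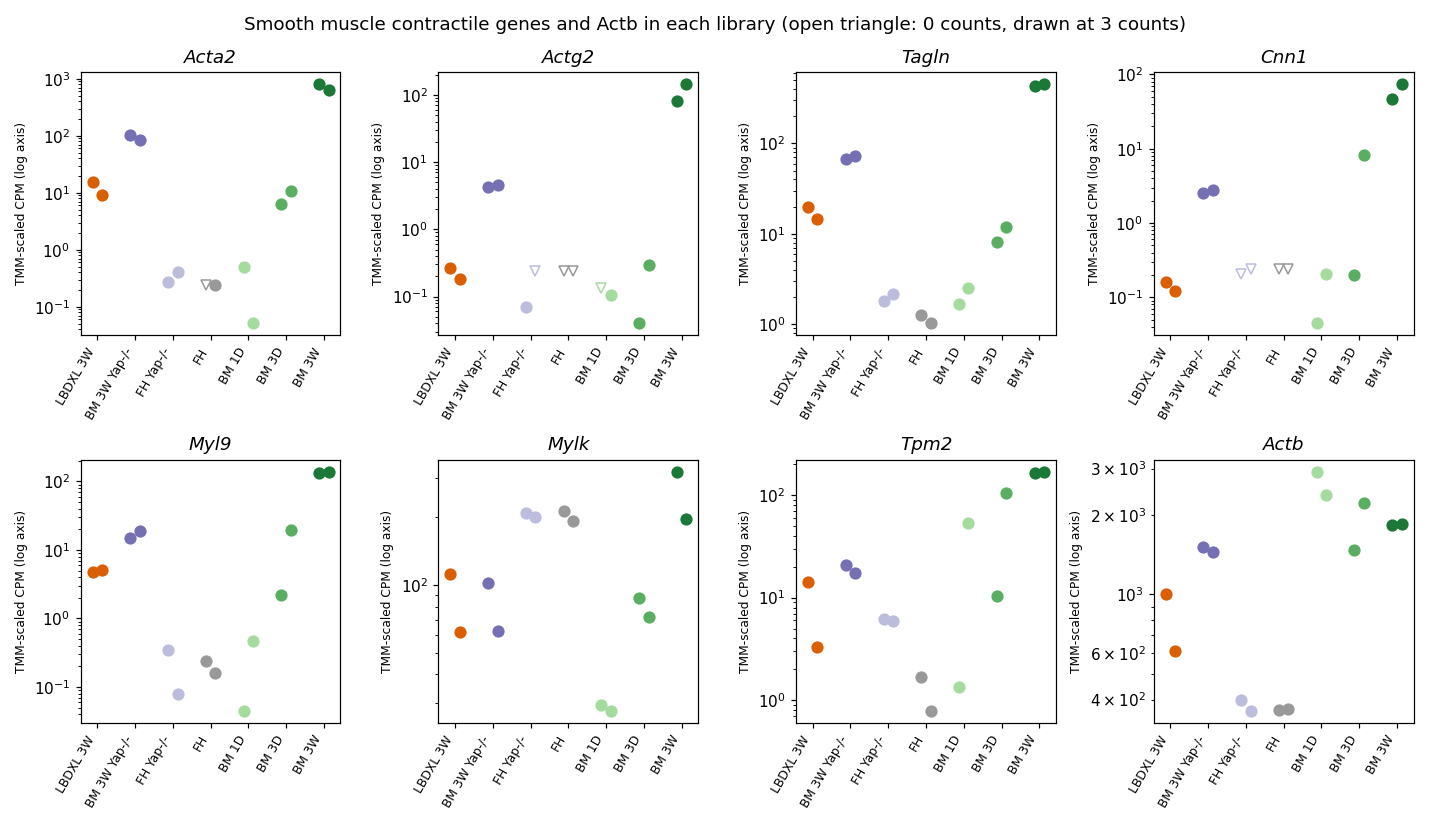
TMM-scaled CPM (log axis) of the 7 smooth muscle genes and Actb in each library, with LBDXL 3W and BM 3W Yap-/- at the left and the BM series from FH to BM 3W at the right. Open triangles are libraries with 0 counts, drawn at 3 counts, so they can sit above points of 1 or 2 counts. Acta2 reaches 816 and 626 CPM in BM 3W, while Actb is at its highest, 2921 CPM, in BM 1D.

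Other members rose again in the later step, after a rise by day 3. Tmsb4x (chromosome X, 167207093 to 167213479) had 13.4 and 9.65 CPM in FH, 24.0 and 33.1 in BM 1D, 89.8 and 99.4 in BM 3D and 612 and 665 in BM 3W (2.76 ± 0.61 against BM 3D, adjusted p = 0.00892, or 0.0597 without BM 3D 1). Csrp1, a LIM protein that binds alpha-actinin and zyxin, rose by 2.33 ± 0.42, Cnn2, a calponin also found outside muscle, by 3.02 ± 0.57 and Tpm1 by 1.73 ± 0.30 against BM 3D. In BM 3D against FH these 3 genes had risen by 2.28, 4.79 and 3.05 on the log2 scale, and Tmsb4x by 3.03. Actb, with 1828 and 1848 CPM in BM 3W and 1474 and 2228 in BM 3D, differed by -0.01 ± 0.34 (adjusted p = 0.987). Myl12b and Cnn3 were the 2 that fell. Cnn3, an acidic calponin, had 217 and 235 CPM in BM 3W and 339 and 369 in BM 3D (-0.65 ± 0.19, adjusted p = 0.0313), and it held under only 9 of 25 alternatives.

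**Figure D3:**
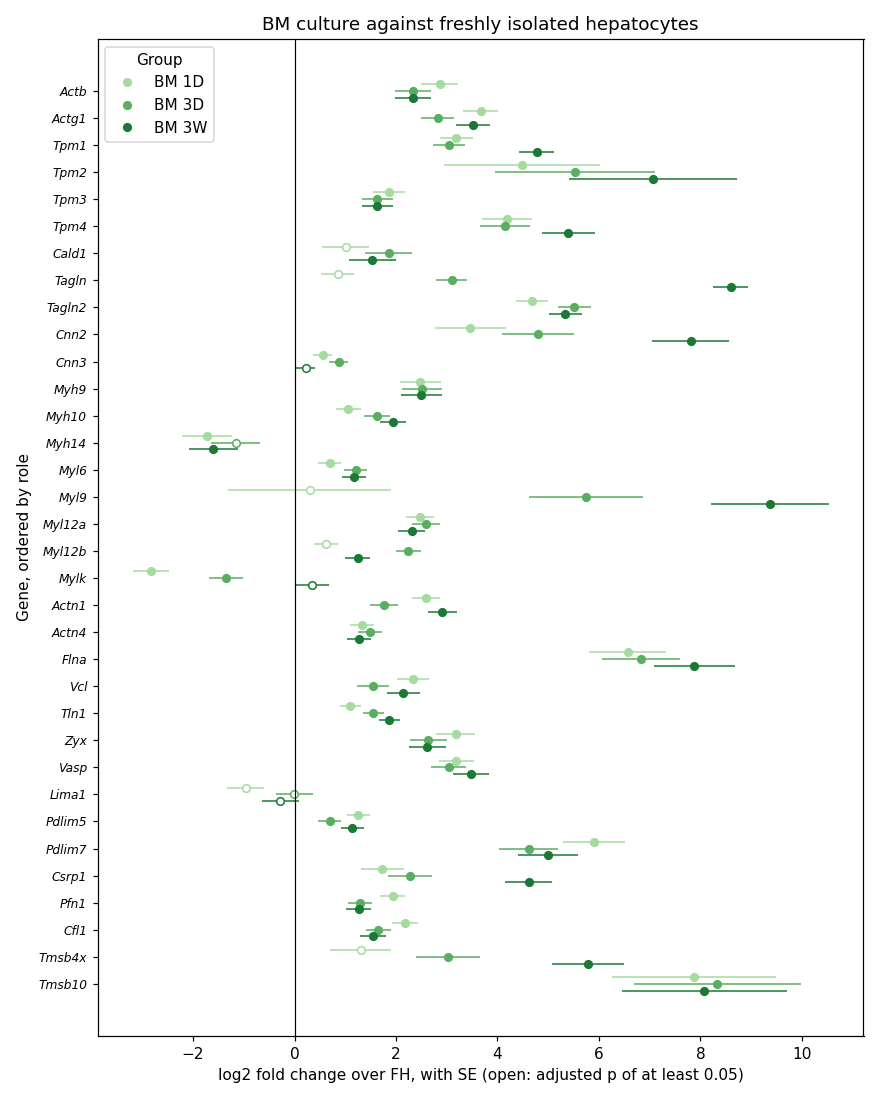
Log2 fold change over FH, with its standard error, of the 34 genes with more than 3 counts in FH, in BM 1D, BM 3D and BM 3W (light to dark green); open points did not pass. Tagln lies at 0.85, 3.10 and 8.59 and Actb at 2.86, 2.34 and 2.33 in that order, and Mylk and Myh14 lie left of 0 at day 1.

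Markers of other cell types moved with these genes, in both directions. In BM 1D against FH, 5 of 7 hepatocyte markers and 3 of 10 stellate cell and fibroblast markers fell, and 4 of the 5 cholangiocyte markers tested rose. In BM 3D against FH, 5 of 7 hepatocyte markers fell, while 5 of 5 cholangiocyte and 5 of 10 stellate cell and fibroblast markers rose. In BM 3W all 7 hepatocyte markers and 4 of 6 sinusoidal endothelial markers fell against FH. All 10 stellate cell and fibroblast markers rose in BM 3W against FH, and their summed CPM was 523 and 288 in LBDXL 3W, 423 and 367 in BM 3W Yap-/-, 92.1 and 109 in FH Yap-/-, 115 and 94.97 in FH, 44.8 and 113 in BM 1D, 95.2 and 302 in BM 3D and 10375 and 14131 in BM 3W. All 6 smooth muscle markers outside the members rose too, and summed to 19.5 and 11.2 CPM in LBDXL 3W, 93.9 and 68.4 in BM 3W Yap-/-, 2.83 and 3.44 in FH Yap-/-, 2.78 and 2.14 in FH, 18.2 and 13.2 in BM 1D, 25.6 and 26.7 in BM 3D and 475 and 483 in BM 3W. The gene Des is in both the stellate cell and fibroblast list and the smooth muscle list, so their counts and sums share it. Myh11, the smooth muscle myosin heavy chain, had 269 and 178 CPM in BM 3W and 0.159 and 0.158 in FH. Myocd and Lmod1 were at 0 in all 4 fresh libraries. The summed CPM of 6 cholangiocyte markers was 4431 and 5133 in BM 3W and 29.7 and 24.8 in FH, and that of 6 Kupffer cell markers was 687 and 588 in BM 3W and 61.5 and 42.5 in FH. Of the Kupffer cell markers 4 rose and 2 fell, among them Clec4f, with a mean of 0.165 CPM in BM 3W and 22.2 in FH. Which cells held the RNA of these markers was not tested, nor was the part of such cells in the levels of the 39 genes.

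**Figure D4:**
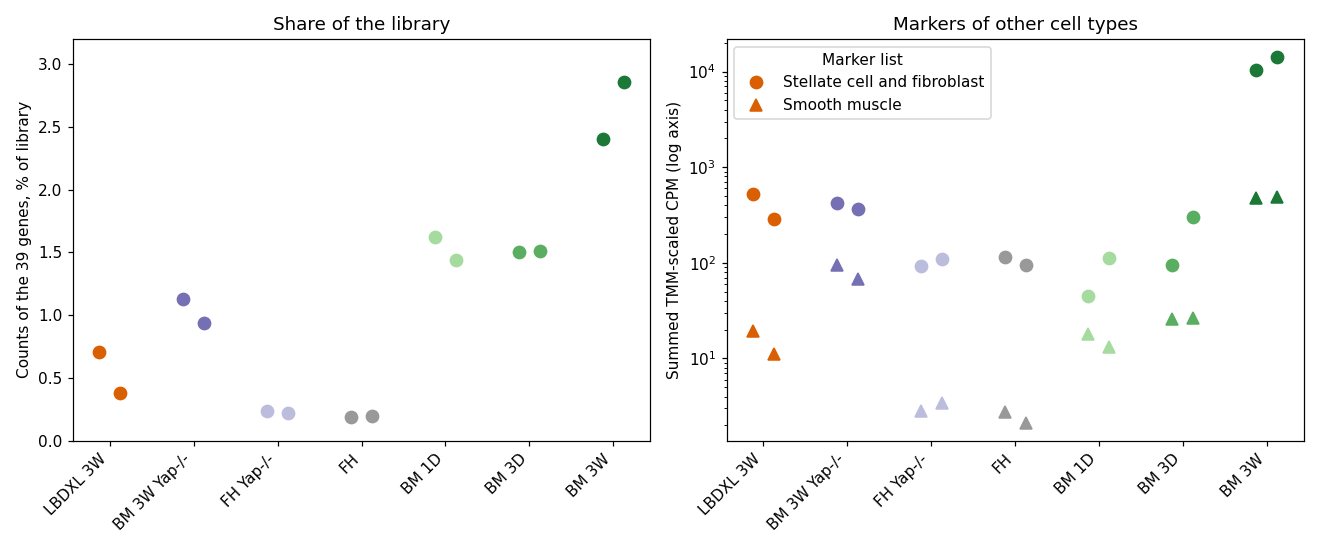
Left: counts of the 39 genes as a percentage of each library, 0.708 and 0.385 in LBDXL 3W and up to 2.85 in BM 3W. Right: summed TMM-scaled CPM (log axis) of 10 stellate cell and fibroblast markers (circles) and 6 smooth muscle markers (triangles) in the same libraries, highest in BM 3W. The gene Des is in both sums.

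In LBDXL culture fewer of the 39 genes passed the test against fresh cells. Against FH, 20 rose and 1 fell in LBDXL 3W, beside 11.7% and 9.60% of all genes, with a median log2 fold change of 1.62 (1.48 with bounds) beside 0.09 over all genes; total counts gave 30 higher and 0 lower, with 81.4% rather than 55.0% of all called genes higher. A fit on these 2 groups alone called 11 members, and leaving out FH 1 or FH 2 left 12 each. Of the 21 calls, 9 held under all 25 alternatives. Among those that rose were Tagln2, with 131 and 98.4 CPM in LBDXL 3W and 8.27 and 5.22 in FH (4.08 ± 0.31, adjusted p = 2.82e-05), Actg1 (1.98 ± 0.32, adjusted p = 0.00195) and Tpm1 (2.15 ± 0.31, adjusted p = 0.000915). Acta2 had 15.2 and 9.06 CPM in LBDXL 3W, a ratio to FH of 104 (95% counting interval 35.3 to 505, adjusted p = 0.000371). In the same comparison 7 of 10 stellate cell and fibroblast and 4 of 6 smooth muscle markers rose. Of the Kupffer cell markers 4 of 6 fell, as did 1 of 6 sinusoidal endothelial and 1 of 7 hepatocyte markers. The part of such cells in these differences was not tested. Actg2 and Cnn1 averaged 0.223 and 0.140 CPM in LBDXL 3W and had no count in FH. Both means lay under the 0.238 CPM that 3 counts were worth in FH. Actb, with 1007 and 612 CPM, passed at adjusted p = 0.0354, but not without LBDXL 3W 1 (0.195), FH 1 (0.184) or FH 2 (0.181).

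Of the 7 groups, LBDXL 3W had the most members that differed between its libraries. After 0.5 CPM was added to each value, 11 members differed over 2-fold between them, all higher in LBDXL 3W 1, while 16.1% of all genes did. Flna had 302 CPM in library 1 and 52.0 in library 2, and Tmsb10 had 402 and 6.71. The smooth muscle actin Acta2 (15.2 and 9.06 CPM) and Tagln (19.98 and 14.6) were closer. Sinusoidal endothelial markers summed to 138 CPM in library 1 and 3.62 in library 2; their part in the difference was not tested. The call of Tmsb10 against FH was lost without library 1, with a log2 fold change of 2.59, and so was that of Flnc. Flnc had no count in FH, so its fold change has no measured size. With both LBDXL 3W libraries it was at least 6.68-fold higher. In BM 3D, 7 members differed over 2-fold, 6 of them higher in library 2, such as Acta1 with 1.34 and 38.1 CPM; BM 1D had 5 such members, BM 3W and BM 3W Yap-/- 1 each and the fresh groups 0. Over all genes the share was 13.9% in BM 3D and 12.1% in BM 1D, close to that of the members.

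Set against BM 3W, LBDXL 3W had 27 of the 39 genes lower and 2 higher, where 23.7% and 21.1% of all genes were. The median log2 fold change was -1.53 beside -0.02 over all genes, and 35 were lower and 0 higher under total counts, with 14.6% rather than 47.1% of all called genes higher. All 7 genes of the smooth muscle set fell, among them Acta2, with 15.2 and 9.06 CPM in LBDXL 3W and 816 and 626 in BM 3W (-5.89 ± 0.57, adjusted p = 4.8e-05). Tagln stood at 19.98 and 14.6 CPM in LBDXL 3W and 436 and 458 in BM 3W (-4.69 ± 0.28, adjusted p = 3.39e-06). Actg2 stood at 0.264 and 0.181 CPM in LBDXL 3W and 80.1 and 145 in BM 3W (-8.93 ± 0.70, adjusted p = 2.25e-05). In all 3 genes the groups lay far apart next to the spread within each. In the same comparison 9 of 10 stellate cell and fibroblast markers, 6 of 6 smooth muscle markers, 4 of 6 Kupffer cell markers and 5 of 5 cholangiocyte markers fell, and 3 of 6 sinusoidal endothelial markers rose. Their part in these differences was not tested.

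Many members outside that set fell in LBDXL 3W as well. Actb, with 1007 and 612 CPM in LBDXL 3W and 1828 and 1848 in BM 3W, fell by 1.18 ± 0.34 (adjusted p = 0.0165), a call lost without LBDXL 3W 2 (adjusted p = 0.11). Actn1, an alpha-actinin of stress fibres and adhesions, had 44.6 and 24.2 CPM in LBDXL 3W and 340 and 408 in BM 3W (-3.44 ± 0.29, adjusted p = 2.1e-05). Flnc fell by 6.10 ± 0.68, Tmsb4x by 4.30 ± 0.66, Flna by 3.30 ± 0.65, Csrp1 by 2.99 ± 0.43 and Vasp by 2.12 ± 0.32. Genes that did not pass included Myl6 (-0.60 ± 0.23, adjusted p = 0.0501), Actn4 (-0.32 ± 0.23, adjusted p = 0.295) and Cnn3 (0.20 ± 0.19, adjusted p = 0.423), which turned negative and passed under total counts (-0.62). Of the 29 calls, 18 held under all 25 alternatives.

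In freshly isolated cells few genes of this list passed the test between genotypes. Of the 39 genes, 0 rose and 1 fell in FH Yap-/- against FH, beside 0.489% and 0.454% of all genes, with 4 higher and 2 lower at an unadjusted p under 0.05 and 1 and 1 with DESeq2. The gene that fell was Myh10, the heavy chain of nonmuscle myosin IIB (chromosome 11, 68691915 to 68816626), with 15.7 and 17.0 CPM in FH Yap-/- and 45.2 and 43.1 in FH (-1.43 ± 0.25, adjusted p = 0.027). Its call was lost without any 1 of the 4 libraries, at adjusted p between 0.234 and 0.322. Actg1 had 156 and 159 CPM in FH Yap-/- and 80.1 and 74.2 in FH (1.03 ± 0.31, adjusted p = 0.244), and the groups did not overlap. The count depends on which libraries set the spread: a fit on the 4 fresh libraries alone, the most alike in the series, called 14 higher and 3 lower of 33 tested, beside 4251 of 11356 genes.

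In BM culture, most of the list was also higher in the Yap-/- libraries than in those of fresh Yap-/- cells. In BM 3W Yap-/- against FH Yap-/-, 29 of the 39 genes rose and 2 fell, beside 19.8% and 16.5% of all genes, with a median of 2.09 beside 0.11. Total counts gave 32 higher and 0 lower, with 80.3% rather than 54.6% of all called genes higher. Actb had 1519 and 1448 CPM in BM 3W Yap-/- and 399 and 363 in FH Yap-/- (1.96 ± 0.35, adjusted p = 0.00166). Acta2 had 105 and 85.6 CPM in BM 3W Yap-/- and 0.276 and 0.400 in FH Yap-/- (8.13 ± 0.71, adjusted p = 3.81e-05). Mylk and Pdlim5 fell, Pdlim5 narrowly (-0.63 ± 0.23, adjusted p = 0.0491) and in 7 of 25 alternatives. Mylk had 102 and 62.4 CPM in BM 3W Yap-/- and 209 and 201 in FH Yap-/- (-1.32 ± 0.34, adjusted p = 0.0109; 0.0952 without BM 3W Yap-/- 2, 0.0552 without FH Yap-/- 1). Actn1, which rose by 2.91 in BM 3W over FH, did not pass here (0.39 ± 0.27, adjusted p = 0.27). In the same comparison 8 of 10 stellate cell and fibroblast, 4 of 6 smooth muscle and 3 of 5 cholangiocyte markers rose. All 6 sinusoidal endothelial markers and 1 of 7 hepatocyte markers fell, and of 6 Kupffer cell markers 2 rose and 2 fell. The part of these markers' cells in the differences was not tested.

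Between the genotypes at 3 weeks in BM, most smooth muscle, crosslinker and adhesion genes were lower in the Yap-/- cells. In BM 3W Yap-/- against BM 3W, 18 of the 39 genes were lower and 2 higher, beside 16.6% and 15.0% of all genes, with a median of -1.18 beside -0.03. Total counts gave 29 lower and 2 higher, with 13.6% rather than 47.5% of all called genes higher. Of the smooth muscle set 6 of 7 fell, as did 3 of 4 crosslinkers and 6 of 8 adhesion and LIM proteins. Acta2 stood at 105 and 85.6 CPM in BM 3W Yap-/- and 816 and 626 in BM 3W (-2.92 ± 0.50, adjusted p = 0.0021), and Tagln at 67.2 and 71.9 CPM in BM 3W Yap-/- and 436 and 458 in BM 3W (-2.68 ± 0.26, adjusted p = 0.000177). Actg2 had 4.32 and 4.58 CPM in BM 3W Yap-/- and 80.1 and 145 in BM 3W (-4.66 ± 0.53, adjusted p = 0.000427). The groups did not overlap in any of the 3.

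Outside that set, Flnc fell by 4.64 ± 0.62, Cnn2 by 2.99 ± 0.57, Actn1 by 2.23 ± 0.28, Tpm1 by 1.77 ± 0.30, Pdlim5 by 1.62 ± 0.23 and Tln1 by 1.26 ± 0.20 in BM 3W Yap-/- against BM 3W, and these held under all alternatives. Flna, with 559 and 454 CPM in BM 3W Yap-/- and 1471 and 2010 in BM 3W, passed narrowly (-1.78 ± 0.61, adjusted p = 0.0459) and not without BM 3W 2 (0.153), BM 3W Yap-/- 2 (0.21) and others. Of the 4 turnover proteins 0 passed with edgeR, with 1 lower at an unadjusted p under 0.05 and 1 lower with DESeq2. Among them, Tmsb4x had 194 and 220 CPM in BM 3W Yap-/- and 612 and 665 in BM 3W, groups that did not overlap. Cfl1 had 482 and 462 CPM in BM 3W Yap-/- and 549 and 532 in BM 3W. Actb (-0.31 ± 0.34, adjusted p = 0.506) and Actg1 (-0.07 ± 0.31, adjusted p = 0.884) did not pass either. Of the 20 calls, 10 held under all alternatives, and 12 members were called without BM 3W 2, 13 without BM 3W Yap-/- 1 and 10 without BM 3W Yap-/- 2. Stellate cell and fibroblast markers were lower in BM 3W Yap-/- in 10 of 10 cases, as were 4 of 6 smooth muscle markers; their part in these differences was not tested.

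**Figure D5:**
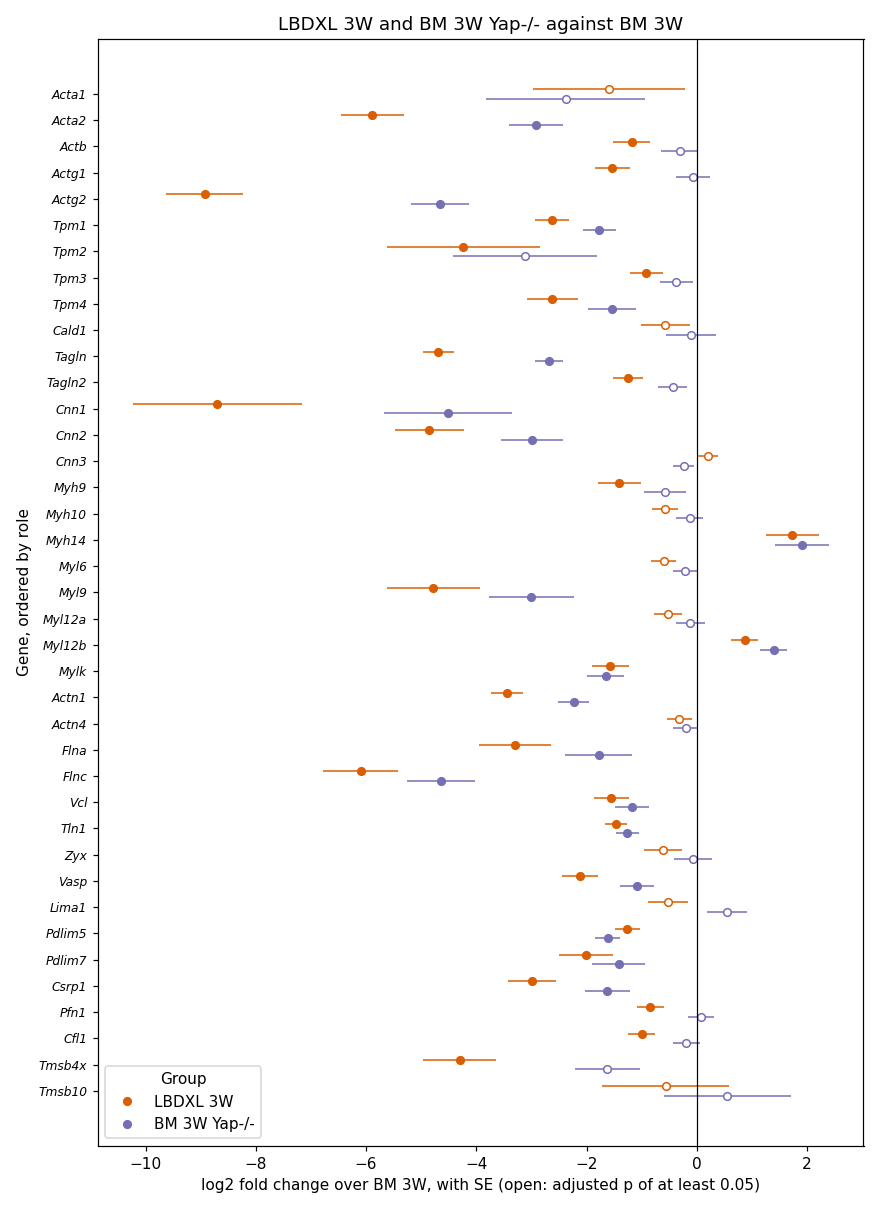
Log2 fold change of the 39 genes in LBDXL 3W (orange) and BM 3W Yap-/- (purple) against BM 3W, with its standard error; open points did not pass, and both series share the BM 3W libraries. Actg2 lies at -8.93 and -4.66 and Acta2 at -5.89 and -2.92, while Myh14 and Myl12b lie right of 0 in both.

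The LBDXL and Yap-/- comparisons share the BM 3W libraries, so LBDXL 3W and BM 3W Yap-/- were also set against each other. These groups differ in both culture and genotype, and the parts of each cannot be told apart. In LBDXL 3W against BM 3W Yap-/-, 7 of the 39 genes were lower and 0 higher, beside 4.33% and 2.61% of all genes, with a median of -0.86 beside -0.01. Under total counts 8 were lower and 0 higher, with 22.3% rather than 37.6% of all called genes higher. The 7 were Acta2, Actg1, Actg2, Tagln, Actn1, Pfn1 and Tmsb4x. Beside them, 5 of 6 Kupffer cell, 3 of 6 smooth muscle and 3 of 5 cholangiocyte markers were lower. Of the sinusoidal endothelial markers 4 of 6 were higher, as was 1 of 7 hepatocyte markers. Of the 10 stellate cell and fibroblast markers 0 passed. The part of such cells in the differences was not tested. Tagln had 19.98 and 14.6 CPM in LBDXL 3W and 67.2 and 71.9 in BM 3W Yap-/- (-2.01 ± 0.25, adjusted p = 0.00175), and Acta2 15.2 and 9.06 CPM in LBDXL 3W and 105 and 85.6 in BM 3W Yap-/- (-2.97 ± 0.50, adjusted p = 0.00789). Acta2, Actg2 and Tagln held under all alternatives. At an unadjusted p under 0.05, 1 was higher and 20 lower, and DESeq2 called 1 and 15. Without LBDXL 3W 1, 18 were called, without LBDXL 3W 2 or FH 2, 4, and without either BM 3W Yap-/- library, 3.

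Whether culture changed a gene by a different amount in the 2 genotypes was tested as an interaction, the log2 change of BM 3W Yap-/- over FH Yap-/- less that of BM 3W over FH. Of the 39 genes, 11 were lower and 2 higher, beside 8.84% and 8.04% of all genes, with a median of -1.38 beside -0.03. Total counts gave 20 lower and 0 higher, with 14.3% rather than 47.6% of all called genes higher. Tagln had an interaction of -3.46 ± 0.41 (adjusted p = 0.00107), Actn1 of -2.52 ± 0.38 (adjusted p = 0.00281) and Pdlim5 of -1.77 ± 0.32 (adjusted p = 0.00593), and these 3 held under all 25 alternatives. The other 10 calls did not, and the count was 3 without FH Yap-/- 1, 4 without FH Yap-/- 2 or FH 1, 5 without FH 2, 6 without BM 3W Yap-/- 2 and 7 without BM 3W Yap-/- 1 or BM 3W 2. Actb (-0.37 ± 0.48, adjusted p = 0.652), Cfl1 (-0.05 ± 0.35, adjusted p = 0.972) and Pfn1 (0.07 ± 0.34, adjusted p = 0.941) did not pass.

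The general nonmuscle members differed in how far they moved. Tpm4, a short nonmuscle tropomyosin, had 143 and 42.4 CPM in LBDXL 3W, 204 and 189 in BM 3W Yap-/-, 30.1 and 24.8 in FH Yap-/-, 13.8 and 13.3 in FH, 302 and 191 in BM 1D, 248 and 232 in BM 3D and 564 and 577 in BM 3W. It rose in BM 3W against FH by 5.40 ± 0.52 (adjusted p = 1.88e-05). Myh9, the heavy chain of nonmuscle myosin IIA, had 734 and 358 CPM in LBDXL 3W, 1227 and 709 in BM 3W Yap-/-, 256 and 257 in FH, 1488 and 1365 in BM 1D, 1236 and 1692 in BM 3D and 1422 and 1469 in BM 3W. Its level in BM was thus near its 3 week level after 1 day. Cald1, which encodes caldesmon, an inhibitor of actomyosin, had 974 and 519 CPM in BM 1D, 1389 and 1307 in BM 3D and 1142 and 1005 in BM 3W, against 364 and 380 in FH. It passed against FH in BM 3D and BM 3W only, and its BM 1D libraries differed widely. Vcl, which encodes vinculin, had 120 and 84.9 CPM in LBDXL 3W, 162 and 103 CPM in BM 3W Yap-/-, against 318 and 281 in BM 3W. It fell by 1.55 ± 0.31 in LBDXL 3W (adjusted p = 0.00273) and by 1.18 ± 0.31 in BM 3W Yap-/- (adjusted p = 0.0162, or 0.136 without BM 3W Yap-/- 2). Zyx had 162 and 63.1 CPM in LBDXL 3W, 159 and 169 CPM in BM 3W Yap-/-, against 150 and 194 in BM 3W. These groups overlap, and Zyx passed in neither comparison.

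Acta1, the skeletal muscle actin, stayed low and uneven. It had 1.16 and 0.725 CPM in LBDXL 3W, 0.389 and 0.704 in BM 3W Yap-/-, 0.226 and 3.49 in BM 1D, 1.34 and 38.1 in BM 3D and 1.89 and 3.83 in BM 3W, and no count in FH. BM 3W was at least 12-fold higher than FH (adjusted p = 0.027, or 0.0715 without BM 3W 2). The difference of BM 1D from FH did not pass (adjusted p = 0.0556).

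A few members went against the rest. Mylk had 112 and 61.5 CPM in LBDXL 3W, 102 and 62.4 in BM 3W Yap-/-, 209 and 201 in FH Yap-/-, 212 and 193 in FH, 29.1 and 27.6 in BM 1D, 87.7 and 71.8 in BM 3D and 319 and 197 in BM 3W. It was thus low in every cultured group except BM 3W, where it overlapped FH (0.35 ± 0.33, adjusted p = 0.384). Myh14 (chromosome 7, 44605803 to 44670872) had 25.7 and 44.1 CPM in LBDXL 3W, 38.3 and 40.4 in BM 3W Yap-/-, 31.2 and 32.7 in FH and 10.6 and 10.4 in BM 3W. It was higher than BM 3W in LBDXL 3W (1.73 ± 0.48, adjusted p = 0.0141) and in BM 3W Yap-/- (1.91 ± 0.48, adjusted p = 0.0137) and fell in BM 3W against FH (-1.60 ± 0.48, adjusted p = 0.0147). Leaving out BM 3W 1 or BM 3W 2 ended these calls, at adjusted p between 0.0605 and 0.0757, and total counts ended those of LBDXL 3W against BM 3W (0.112) and BM 3W against FH (0.542). The calls also failed without LBDXL 3W 2 (0.0954), without BM 3W Yap-/- 2 (0.0617) and without FH 2 (0.0615), in the order named.

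Myl12b (chromosome 17, 70973963 to 70990516), which encodes a regulatory light chain of nonmuscle myosin, had 408 and 257 CPM in LBDXL 3W, 494 and 460 in BM 3W Yap-/-, 75.9 and 77.2 in FH, 109 and 126 in BM 1D, 379 and 347 in BM 3D and 191 and 172 in BM 3W. Over the BM series it was highest at 3 days, and it was higher than BM 3W in BM 3W Yap-/- (1.39 ± 0.25, adjusted p = 0.00257) and in LBDXL 3W (0.87 ± 0.24, adjusted p = 0.0144; 0.106 without LBDXL 3W 1, 0.0781 without BM 3W 2 and 0.855 under total counts). Its neighbour Myl12a did not pass in either comparison with BM 3W (-0.52 ± 0.26 in LBDXL 3W, -0.12 ± 0.26 in BM 3W Yap-/-). Lima1, an actin-bundling LIM protein, passed in none of the 12 comparisons with TMM, though under total counts it was higher in BM 3W against FH (1.01) and BM 3D against FH (0.95). It had 98.0 and 66.2 CPM in LBDXL 3W, 219 and 126 in BM 3W Yap-/-, 141 and 145 in FH and 123 and 112 in BM 3W. Its lowest mean was in BM 1D, with 45.3 and 101 CPM (-0.96 ± 0.36 against FH, adjusted p = 0.0521).

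Other genes of actin regulation moved as well. In BM 3W against FH, 16 of 18 further focal adhesion genes rose and 0 fell, beside 33.0% and 26.1% of all genes. Of the capping, severing and linker genes 11 of 17 rose and 1 fell, and of the Arp2/3 genes 7 of 16 rose and 2 fell. The Arp2/3 counts lay nearest to the shares over all genes. Median log2 fold changes of these lists, in the order named, were 1.55, 1.60 and 0.52, beside 0.17 over all genes. Tgfb1i1, which encodes the paxillin relative Hic-5, averaged 42.7 CPM in BM 3W and 0.278 in FH (7.23 ± 0.73, adjusted p = 2.34e-05). Capg, a capping protein, averaged 92.6 CPM in BM 3W and 0.277 in FH (8.35 ± 0.71, adjusted p = 1e-05).

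Many focal adhesion and capping genes fell in both other 3 week cultures. In LBDXL 3W against BM 3W, 13 of 18 focal adhesion genes, 13 of 17 capping and linker genes and 6 of 16 Arp2/3 genes fell, and 2 of the last rose, beside 23.7% of all genes lower and 21.1% higher. In BM 3W Yap-/- against BM 3W, with the same BM 3W libraries, 10, 8 and 3 genes of these lists fell and 1 Arp2/3 gene rose, beside 16.6% of all genes lower and 15.0% higher. The Arp2/3 count there was near the share over all genes, and its median of -0.02 lay beside -0.03 over all genes. Capg averaged 2.36 CPM in LBDXL 3W and 92.6 in BM 3W (-5.28 ± 0.57, adjusted p = 8.07e-05), and 11.8 CPM in BM 3W Yap-/- (-2.97 ± 0.50, adjusted p = 0.00194). Lists of hepatocyte markers ran the other way, with 6 of 7 higher in LBDXL 3W than in BM 3W and 0 lower, and 5 higher and 1 lower in BM 3W Yap-/-.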

How the data were processed

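RNA-seq gene tables of 14 mouse hepatocyte libraries were used. Total RNA came from RNeasy kits, TruSeq Stranded mRNA libraries and a HiSeq4000, per the labels' protocols. Trimmomatic, HISAT2, Cufflinks, HTSeq, DESeq and the build GRCm38.p6 are named in the submitters' processing notes, with no versions. The raw counts per gene and the FPKM values were deposited by the authors, 1 table of each, and their steps were not repeated. All 14 libraries entered 1 fit of group means in edgeR 4.0.16 (R 4.3.3) after filterByExpr and TMM scaling. Differences were tested with edgeR's quasi-likelihood F-test and Benjamini-Hochberg adjustment over 14100 genes, at an adjusted p under 0.05, in 12 comparisons. Standard errors were derived from the F statistic. Genes with 0 counts in a group were bounded by 3 counts per library, and ratios of 1 to 3 counts carry a 95% interval; both cover counting error only. Depth was 15501005 to 21220365 counts, so 3 counts were worth 0.0898 to 0.240 CPM. The 25 alternatives covered scaling, DESeq2 1.42.0, limma 3.58.1 on log2(FPKM + 1) and log2(FPKM + 0.1) for genes with a mean of at least 0.5 FPKM or with no filter, the low-count filter, fits on the compared groups, a replicate block, removal of the 20 most abundant genes, a fold minimum and leaving out each library. The fit was tested on simulated data. All 39 genes could be named, and of each related list at most the 4 with the smallest p. The members and lists were chosen with earlier results of these data known. Another list of related genes is not reported here.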

Additional observations from a re-analysis of the deposited data

Results flagged for a closer look

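In 13 of the 39 genes the change over 3 weeks of BM culture differed between Yap-/- hepatocytes and those without that genotype, by the interaction term in edgeR's quasi-likelihood test. Of these, 11 were lower and 2 higher, beside 8.84% and 8.04% of all genes. The log2 interaction was -4.36 for Acta2, -3.81 for Cnn2, -3.46 for Tagln, -2.56 for Tpm4, -2.52 for Actn1, -1.997 for Tpm1, -1.77 for Pdlim5, -1.67 for Mylk, -1.54 for Vasp, -1.38 for Tagln2 and -1.32 for Tln1. The interaction was positive for Myl12b at 1.59 and for Myh10 at 1.30. Myh10 averaged 155 CPM in BM 3W Yap-/- and 169 in BM 3W, against 16.4 in FH Yap-/- and 44.2 in FH. Its larger difference thus lay between the fresh groups. Tagln, Actn1 and Pdlim5 passed under all 25 alternatives, and the other 10 did not. Acta2 had only 0 and 3 counts in the FH libraries and 4 and 5 in FH Yap-/-. The size of its interaction, -4.36, is therefore uncertain.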

How the results depend on the processing

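Of 242 calls of a member in a comparison, 158 held under all 25 alternatives. Leaving out 1 library at a time gave 23 to 34 members called in BM 1D against FH, 31 to 37 in BM 3D against FH, 33 to 36 in BM 3W against FH, 12 to 24 in LBDXL 3W against FH, 25 to 31 in BM 3W Yap-/- against FH Yap-/-, 0 to 1 in FH Yap-/- against FH, 2 to 7 in BM 3D against BM 1D, 9 to 16 in BM 3W against BM 3D, 21 to 32 in LBDXL 3W against BM 3W, 10 to 21 in BM 3W Yap-/- against BM 3W, 3 to 18 in LBDXL 3W against BM 3W Yap-/- and 3 to 16 for the interaction. Over all genes, in the same order, the ranges were 3842 to 6517, 3435 to 6056, 5932 to 8612, 1178 to 3171, 2857 to 5524, 13 to 231, 178 to 1210, 1664 to 4067, 3993 to 6549, 1938 to 5165, 209 to 1823 and 800 to 3027. Fits on the compared groups alone, which have fewer samples, called 11 members and 1759 genes in LBDXL 3W against FH, 17 and 4251 in FH Yap-/- against FH, 0 and 0 in BM 3D against BM 1D, 3 and 169 in LBDXL 3W against BM 3W Yap-/- and 21 and 4551 for the interaction, and 3997 genes in LBDXL 3W against BM 3W. DESeq2 called 2 members and 367 genes in FH Yap-/- against FH, 10 and 1716 in BM 3D against BM 1D, 16 and 1879 in LBDXL 3W against BM 3W Yap-/-, and 21 members for the interaction. Total counts called 8613 genes in BM 3D against FH, 31 members in BM 3W Yap-/- against BM 3W and 20 for the interaction. On log2(FPKM + 1), limma called 0 members in FH Yap-/- against FH, 32 in BM 3W Yap-/- against BM 3W, 13 in LBDXL 3W against BM 3W Yap-/- and 29 members and 4244 genes for the interaction; with 0.1 added it called 31, 14 and 25 members in the last 3 and 4061 genes for the interaction. With no filter it called 0 members and 269 genes in FH Yap-/- against FH, 32 and 7098 in BM 3W Yap-/- against BM 3W and 24 and 5532 for the interaction. Lima1 turned positive and passed in BM 3D against FH under total counts (0.95), log2(FPKM + 1) (0.95) and log2(FPKM + 0.1) (1.00), and in BM 3W against FH under the same 3 (1.01, 1.06 and 1.12) and with no filter (1.06). Cnn3 turned negative and passed in LBDXL 3W against BM 3W under the same 4 (-0.62, -0.57, -0.57 and -0.57), as did Pfn1 in BM 3W Yap-/- against BM 3W in the 3 FPKM fits (-0.62 each). Apart from fits with fewer samples, the cause was not tested. The labels do not say that libraries with the same number belong together. Over 21 pairs of groups the correlation of their deviations ran from -0.023 to 0.461, with 5 over 0.1 and 0 under -0.1, so some pairs deviated together but not all, and the numbers were not taken as pairs. With the replicate number as a block, 29, 37, 36, 21, 32, 1, 5, 15, 30, 20, 7 and 15 members were called, in the order above with the interaction last.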
